A study of Danio rerio with 19 samples.

Results

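The voltage-gated calcium channel subunit genes were taken as every gene whose symbol, ignoring case, starts with cacna, cacnb or cacng, and this rule found 49 of the 32020 gene IDs in the count tables. They comprised 18 cacna1 genes, 9 cacna2d genes, 7 cacnb genes and 15 cacng genes. The 49 IDs carry 41 symbols, because 8 symbols are each shared by a pair of IDs, so the ID stands beside each shared symbol. A shared symbol marks a pair of zebrafish duplicates that the gene names do not separate into a and b copies, and reads may have been split between such copies in the authors' counting.

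The 19 bulk RNA-seq libraries were each made from 1 zebrafish larval head without its eyes. The scn1lab line segregates the deletion allele scn1labΔ44 of a gene for a voltage-gated sodium channel, whereas the dyrk1a line segregates the deletion alleles dyrk1aaΔ77 and dyrk1abΔ8 of both copies of a protein kinase gene. Each line was bred by crossing heterozygotes, and the larvae sampled were siblings or cousins. In scn1lab there are 3 libraries each of homozygotes (HOM), heterozygotes (HET) and wild types (WT), and in dyrk1a the numbers are 4, 3 and 3 in the same order. The dyrk1a HOM and HET larvae are labelled by 1 genotype for both copies together, and the age of the larvae is not given in the sources used here.

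A voltage-gated calcium channel is built around a pore-forming subunit of the cacna1 family, which opens on depolarization and sets whether the current is of the L, P/Q, N, R or T type. Extracellular alpha2delta subunits (cacna2d) and cytoplasmic beta subunits (cacnb) bring the pore to the membrane and tune its gating, and a gamma subunit (cacng) joins the skeletal muscle channel. Most other cacng genes encode TARPs, proteins that traffic and gate AMPA-type glutamate receptors at synapses. In a fish head these channels serve transmitter release in neurons and at the ribbon synapses of photoreceptors and hair cells, and contraction in muscle.

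Levels are CPM, read counts scaled to a common library total, on library sizes scaled by TMM, and they can be compared between libraries but not between genes, because transcript lengths were not used here. The libraries held between 15.1 and 29.9 M counts, so that 3 counts, the floor used for a gene at 0, were worth 0.0984 to 0.265 CPM. A gene was called at an adjusted p under 0.05 in edgeR's quasi-likelihood test (Benjamini-Hochberg, two-sided, over all genes tested). The test took 44 of the 49 genes in scn1lab and 43 in dyrk1a after the filter on low counts, and none of the 49 was at 0 in every library. Left out in both lines were cacna1db, cacna1fa, CACNA1H and cacng3a, together with CACNA2D3 (ENSDARG00000106018) in scn1lab and cacna1ib and CACNA2D4 in dyrk1a.

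The libraries differed in what else they held. Digestive-organ genes took 11.1% of counts in scn1lab HOM1, 14.3% in HOM3, 11.3% in HET2 and 5.09% in dyrk1a HET4, and at most 2.28% elsewhere. Neurons were present in every library by their markers, and photoreceptor markers were also detected although the eyes had been removed. None of the targeted genes passed the threshold in HOM against WT of its own line. The gene scn1lab was at 6.39 to 16.3 CPM in scn1lab HOM and 15.5 to 18.5 CPM in WT, which overlap. DYRK1A (ENSDARG00000023814) was at 39.3 to 58.8 CPM in dyrk1a HOM and 35.2 to 38.2 CPM in WT, so every HOM library was above every WT library (log2 change 0.36 ± 0.17, edgeR adjusted p = 0.655). DYRK1A (ENSDARG00000063570) was at 6.92 to 24.8 CPM in dyrk1a HOM and 8.76 to 17.7 CPM in WT, which overlap. A deletion need not lower transcript counts, so these levels do not check the labels.

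In scn1lab HOM heads many subunit genes had lower counts than in WT heads, but no subunit gene passed the threshold. The sum over all 49 genes was 256, 276 and 244 CPM in HOM1 to HOM3, 227, 381 and 313 CPM in HET1 to HET3, and 514, 548 and 588 CPM in WT1 to WT3. All HOM and HET libraries were thus below all WT libraries, and the WT mean was 2.12 times the HOM mean. By subfamily the WT mean was 2.77 times the HOM mean for cacnb, 2.4 times for cacna2d, 1.93 times for cacng and 1.62 times for cacna1. In the dyrk1a line the same sum was 283, 277, 498 and 404 CPM in the 4 HOM libraries (HOM1, HOM2, HOM3 and HOM5, in this order throughout), 399, 409 and 430 CPM in the HET libraries and 398, 482 and 519 CPM in the WT libraries, so that HOM and WT overlapped.

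**Figure D1:**
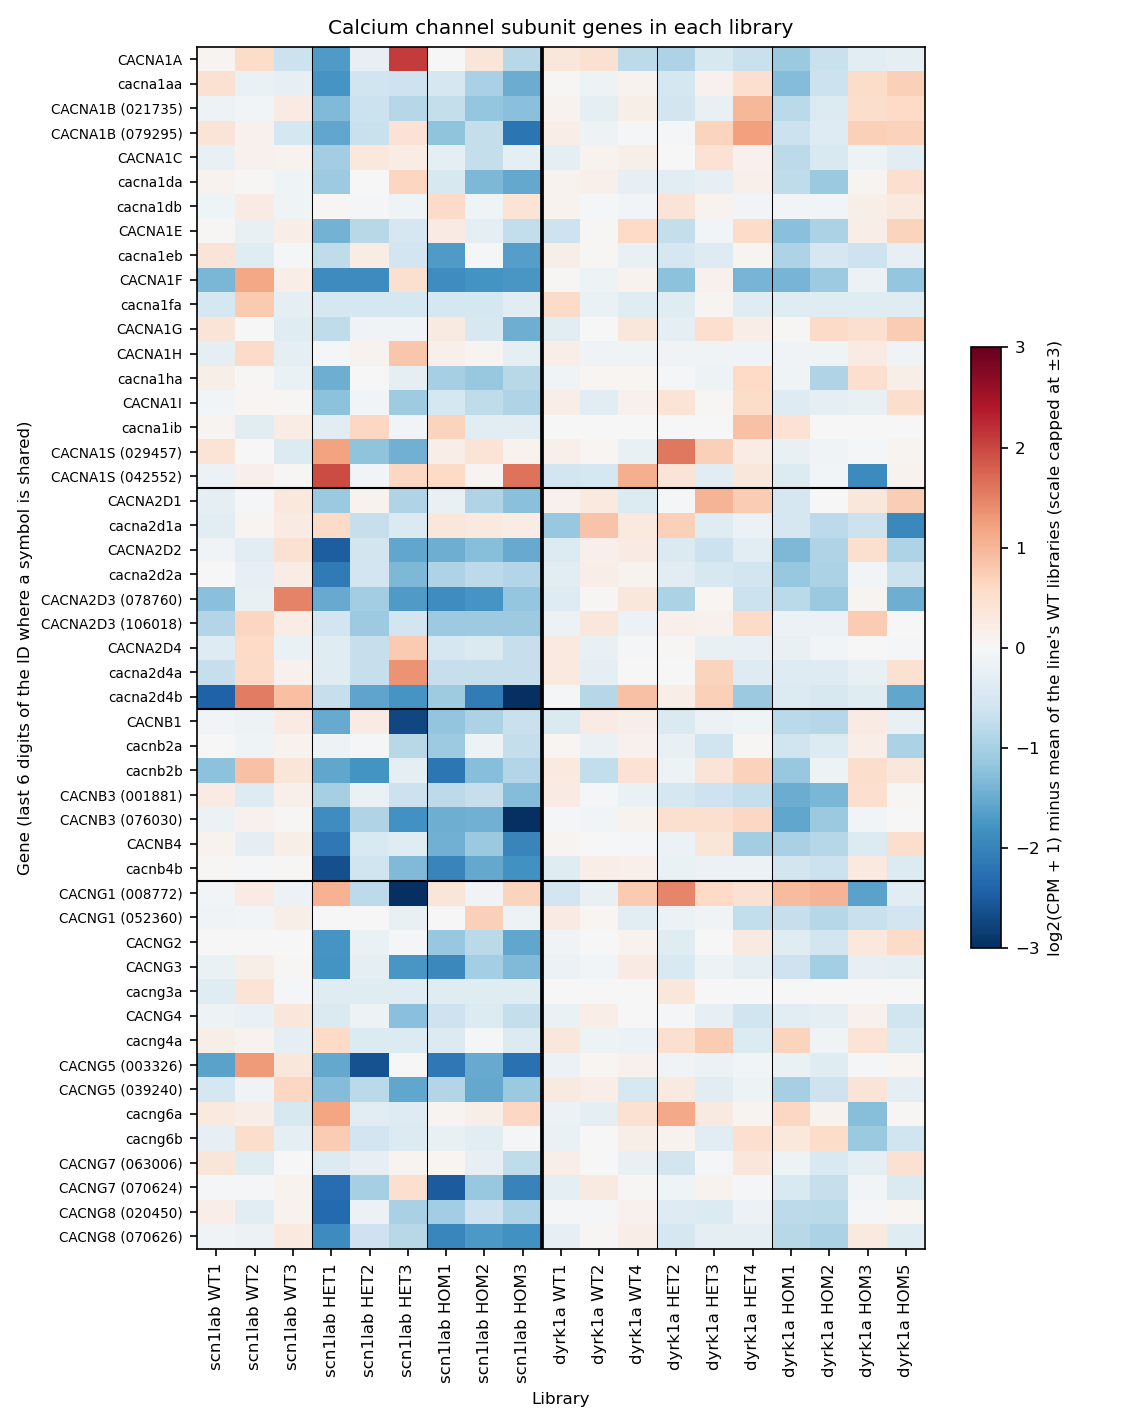
Level of each of the 49 subunit genes (rows) in each of the 19 libraries (columns), as log2(CPM + 1) minus the mean of the line's WT libraries, with blue below and red above WT. Rows are grouped into cacna1, cacna2d, cacnb and cacng genes, and blue fills most cacnb rows and the CACNG8, CACNG3 and CACNA2D2 rows in the scn1lab HOM libraries while the CACNA1S and CACNG1 rows do not follow.

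Tested gene by gene, 0 of 44 subunit genes were called in scn1lab HOM against WT, where 0.00466% of all genes tested were called. At an unadjusted p under 0.05, 17 of 44 were lower and 0 were higher, against 9.1% lower and 9.8% higher among all genes. This count of 17 ranged from 10 to 22 as single libraries were left out: it was 10 without HOM1, 10 without HOM3 and 11 without WT3. In 24 of 44 (54.5%) every HOM library was below every WT library, against 18.3% of all genes, and in 0 every HOM library was above, against 18.2% of all genes. These 24 were 8 of 15 cacna1, 3 of 8 cacna2d, 6 of 7 cacnb and 7 of 14 cacng genes. Some separated by a narrow gap between the highest HOM and the lowest WT library. The gap was 8.16 to 8.27 CPM in cacnb2a and 2.24 to 2.37 CPM in CACNA1C. In CACNA2D4 it was 0.188 to 0.237 CPM, near the floor. The median log2 change was -1.16 over the 44 genes and 0.09 over all genes tested.

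How many genes pass in scn1lab HOM against WT depended on the fit. When the edgeR fit held only these 6 libraries, 12 of 40 genes passed and all were lower, where 5.75% of all genes were called lower. DESeq2 called 6, all lower, where it called 3.81% of all genes lower, and 4 genes passed in both of these fits. Without HET1 in the fit of the whole line, CACNG8 (ENSDARG00000070626) and cacnb4b passed, and no share of all genes was computed for that fit. With the share of digestive genes as a covariate no gene passed, and the number lower at an unadjusted p under 0.05 went from 17 to 6. Without the libraries over 3% digestive share, where HOM2 alone stood for HOM and was assumed to vary like the other groups, it was 5. The median log2 change of the subunit genes was -1.29 with the covariate and -1.09 without those libraries.

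The markers of neurons moved with these genes. Their summed level over 24 marker genes was 1060, 1570 and 1130 CPM across scn1lab HOM, 689, 2290 and 3010 CPM in HET against 3540, 3320 and 4100 CPM in WT, a WT mean 2.92 times the HOM mean. Of the 24 markers, 20 were below WT in every HOM library, 0 were above, and 0 were at 0 in all HOM libraries. Marker sums of other tissues also separated HOM from WT. Astroglia markers were lower, at 2520 to 3070 CPM in HOM and 4260 to 5310 CPM in WT. Heart markers were higher, at 568 to 1010 CPM in HOM and 289 to 465 CPM in WT. Skin markers were higher too, at 42200 to 68400 CPM in HOM and 21800 to 38300 CPM in WT. Per 1000 CPM of neuron markers, the 49 genes summed to 176 to 240 CPM in HOM and 144 to 165 CPM in WT. On this scale every HOM library was above every WT library, while HET1 to HET3 were at 330, 166 and 104 CPM. The same held for cacna1, at 37.1 to 67 CPM in HOM and 19.7 to 29.5 CPM in WT. It also held for cacng, at 68.3 to 90.1 CPM in HOM and 48.8 to 60.1 CPM in WT. These sums include muscle-type genes such as CACNA1S and CACNG1, which did not fall with the neuron markers in HOM. The ratios without the muscle-type genes were not computed, so these separations cannot be read as more subunit RNA per neuron. The cacna2d ratio overlapped, at 27.8 to 41.3 CPM in HOM and 20.8 to 32.5 CPM in WT. For the cacnb genes the same ratio was 42.8 to 51.9 CPM in HOM and 42.6 to 46.5 CPM in WT, and these ranges overlap. In bulk samples, fewer cells of a type and less RNA per cell cannot be told apart. The part of the neuron markers, or of the other tissues, in the results was not tested.

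**Figure D2:**
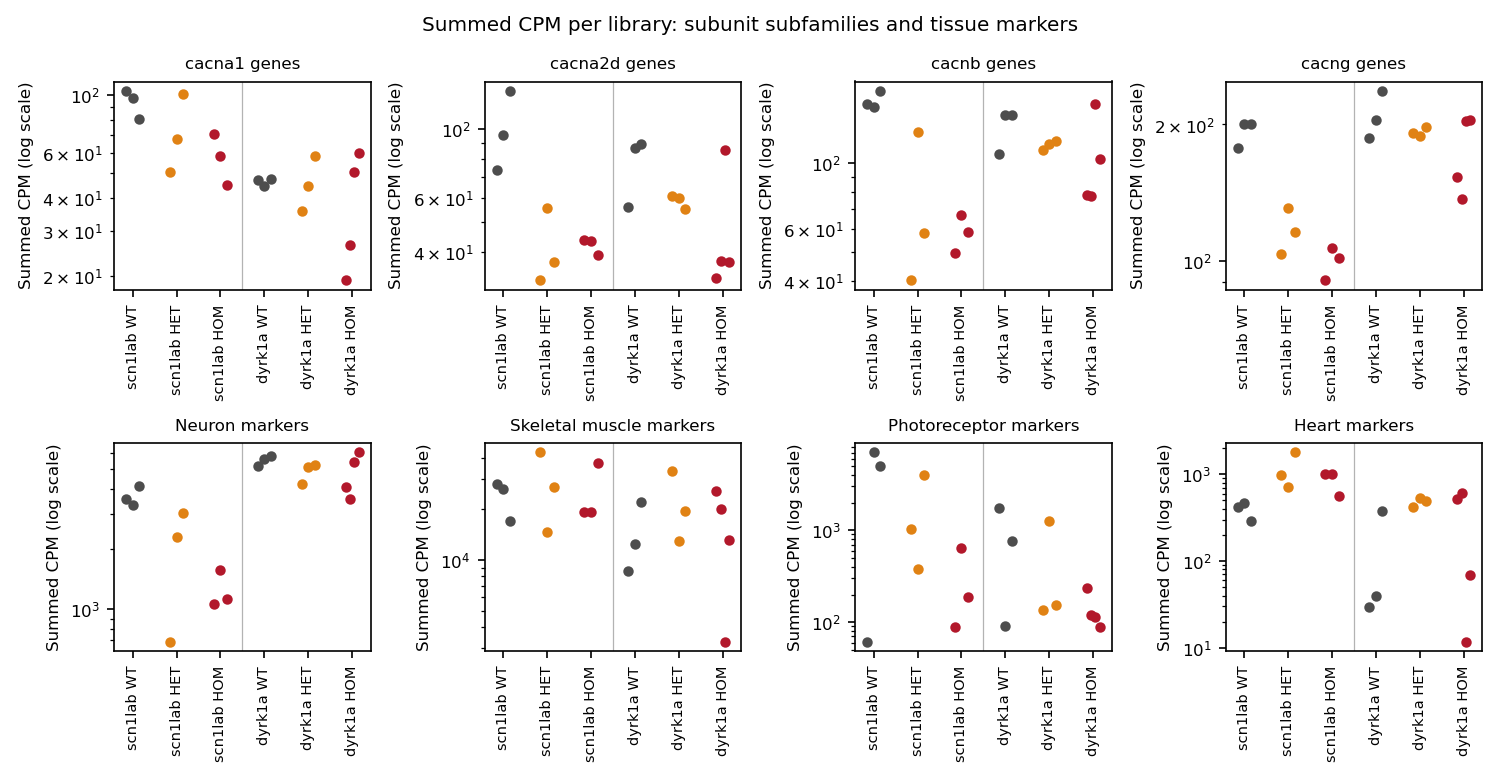
Summed CPM per library (points, log axis) of the 4 subunit subfamilies in the upper row and of neuron, skeletal muscle, photoreceptor and heart markers in the lower row, by genotype and line. In scn1lab the cacnb sum lies at 49.6 to 67.1 CPM in HOM and 154 to 175 CPM in WT. The neuron marker sum separates the same groups while the muscle marker sum does not. The heart marker sum separates them in the other direction, at 568 to 1010 CPM in HOM and 289 to 465 CPM in WT.

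Among the auxiliary subunits, the beta subunit gene cacnb4b (ENSDARG00000062174), whose mammalian counterpart is a brain beta subunit lost in the lethargic mouse, had 21.2, 28.9 and 23.6 CPM across scn1lab HOM, 12.9, 56.3 and 33.9 CPM in HET against 88.1, 82.1 and 88.4 CPM in WT. The WT libraries lay close together, and all 6 HOM and HET libraries were below them. The log2 change of HOM against WT was -1.81 ± 0.45 (SE; edgeR adjusted p = 0.156). Its duplicate, named CACNB4 (ENSDARG00000009738), had 1.94, 2.72 and 1.02 CPM in HOM and 7.69, 5.57 and 8.03 CPM in WT, again without overlap, and a log2 change of -1.9 ± 0.69 (edgeR adjusted p = 0.204). In HET it had 0.815, 4.81 and 5.21 CPM, all below the lowest WT library.

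The other beta subunit genes ran the same way at several levels. CACNB1, the beta subunit of the skeletal muscle channel that is also made in neurons, had 16.5, 19.6 and 24.1 CPM in scn1lab HOM and 36.2, 34.9 and 45.8 CPM in WT. CACNB3 (ENSDARG00000076030), a beta subunit of neuronal channels in mammals, had 2.07, 2.16 and 0 CPM in HOM and 6.54, 8.34 and 7.8 CPM in WT. CACNB3 (ENSDARG00000001881) had 3.73, 4.04 and 2.3 CPM in HOM and 5.17 to 8.59 CPM in WT. None of these 3 genes overlapped between HOM and WT, whereas cacnb2b did: it had 0.346, 1.5 and 2.3 CPM in HOM and 1.58, 10 and 6.69 CPM in WT.

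Of the alpha2delta genes, CACNA2D2 (ENSDARG00000078169), whose mouse counterpart is strongly expressed in cerebellar Purkinje cells, had 16, 18.1 and 15.4 CPM across scn1lab HOM, 7.34, 30.6 and 14.7 CPM in HET against 42.1, 35.6 and 63 CPM in WT. Both mutant genotypes lay below all WT libraries, with a HOM against WT log2 change of -1.51 ± 0.47 (edgeR adjusted p = 0.17). Its duplicate cacna2d2a had 9.68, 10.7 and 9.97 CPM across HOM, 3.63, 12.6 and 6.97 CPM in HET against 19.2, 16.1 and 22.7 CPM in WT, the same order. CACNA2D3 (ENSDARG00000078760), a neuronal alpha2delta gene, had 0.622, 0.704 and 1.6 CPM in HOM and 1.46, 4.01 and 15.3 CPM in WT, so that HOM3 exceeded WT1. Its log2 change was -2.82 ± 0.88 (edgeR adjusted p = 0.171), with WT3 far above the other WT libraries. The second CACNA2D3 ID (ENSDARG00000106018) was at 0 in all 3 HOM libraries and at 0.158, 2.37 and 1.51 CPM in WT, which is at least 7.47-fold lower in HOM, against a floor of 3 counts per library. With cacna2d4a, also at 0 in all HOM libraries, set to such a bound, the median log2 change of the cacna2d genes was -1.75 in place of -2.03.

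The TARP genes gave the gene with the smallest p of all 44. CACNG8 (ENSDARG00000070626), a TARP that in mammals is prominent in the forebrain, had 5.39, 6.57 and 6.13 CPM across scn1lab HOM, 5.75, 15.2 and 13.1 CPM in HET against 22.1, 21 and 29.7 CPM in WT. The HOM libraries were tightly grouped and WT lay above HOM and HET throughout. Its log2 change was -2 ± 0.39 (edgeR adjusted p = 0.148). The other CACNG8 ID (ENSDARG00000020450) had 20.3, 27.5 and 22.3 CPM in HOM and 49.4, 34.4 and 46.7 CPM in WT, also without overlap.

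CACNG3, another TARP gene, had 3.8, 8.16 and 6.33 CPM in scn1lab HOM and 15, 19.8 and 17.8 CPM in WT, with a log2 change of -1.52 ± 0.51 (edgeR adjusted p = 0.188). CACNG2, which encodes stargazin, the founding TARP, had 15.8, 19.9 and 11.4 CPM in HOM and 35.8, 35.1 and 36.1 CPM in WT, with a log2 change of -1.18 ± 0.43 (edgeR adjusted p = 0.205). Neither gene overlapped between HOM and WT. Of the type II TARP genes, CACNG7 (ENSDARG00000070624) had 1.59, 5.63 and 2.68 CPM in HOM and 13.2, 13.1 and 14.8 CPM in WT. CACNG5 (ENSDARG00000039240) had 3.18, 1.64 and 2.56 CPM in HOM and 4.3, 6.15 and 10.8 CPM in WT, and its log2 change was -1.52 ± 0.53 (edgeR adjusted p = 0.195). In both, the highest HOM library was below the lowest WT library. In HET CACNG7 (ENSDARG00000070624) had 2, 6.39 and 19.7 CPM, with HET3 above every WT library. The other CACNG7 ID (ENSDARG00000063006) overlapped, with 0.761, 0.422 and 0 CPM in HOM and 1.18, 0.328 and 0.688 CPM in WT.

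**Figure D3:**
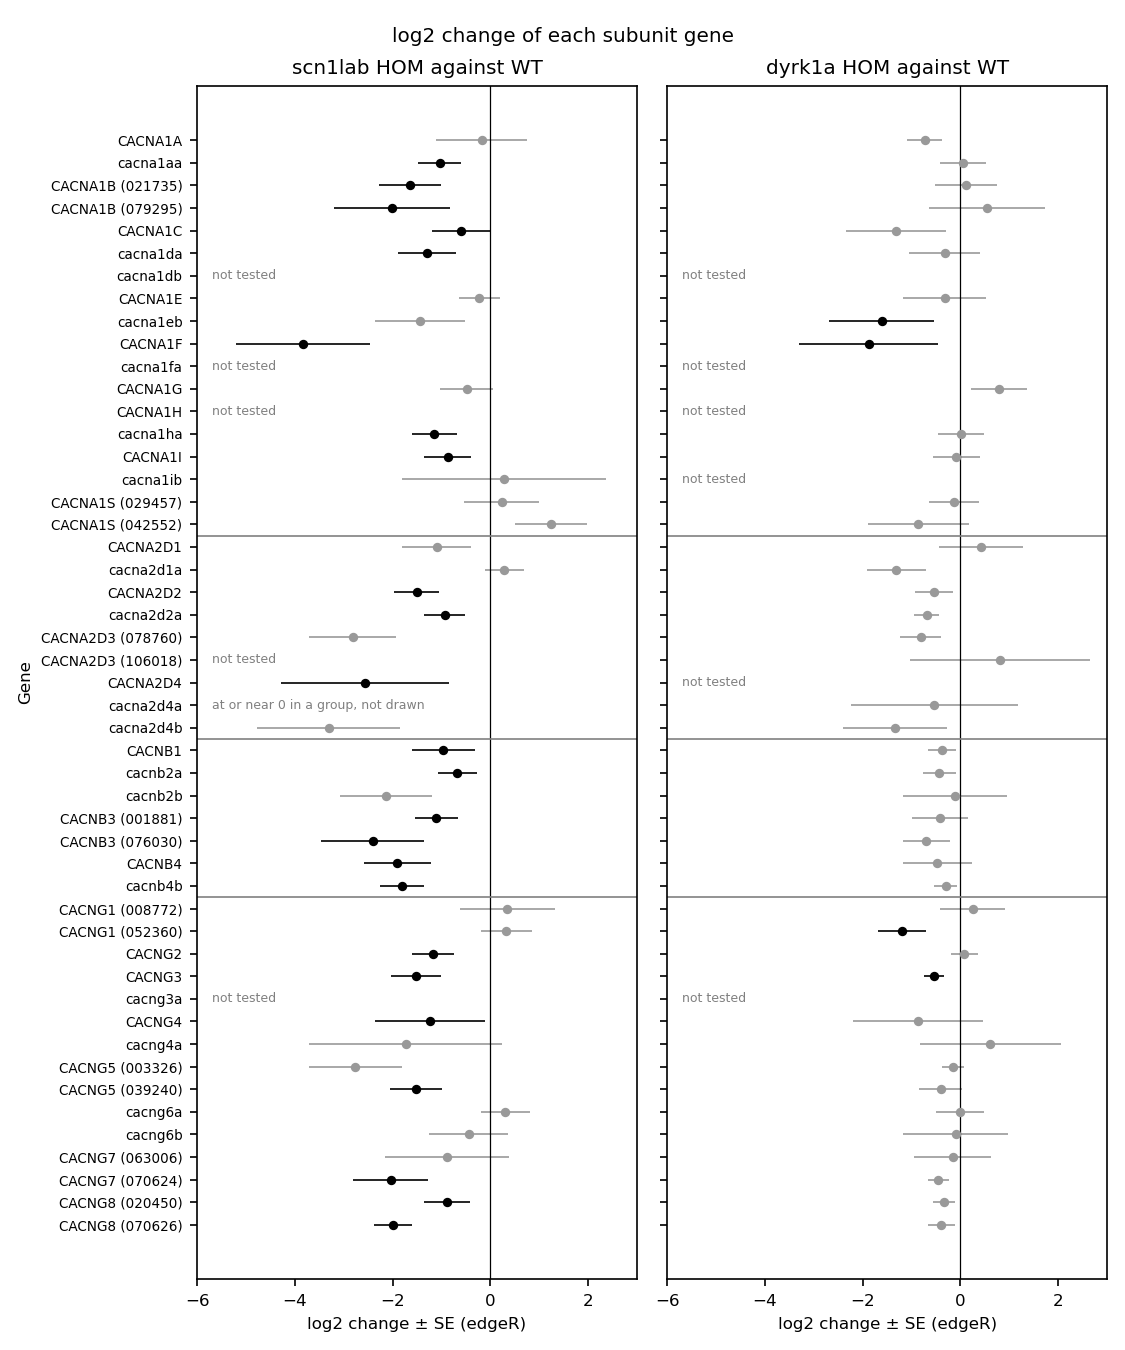
log2 change ± SE (edgeR) of HOM against WT for each subunit gene in scn1lab (left) and dyrk1a (right), in black where every HOM library was below every WT library and in grey otherwise. In scn1lab 24 genes are black, and in dyrk1a 4 are: cacna1eb, CACNA1F, CACNG1 (ENSDARG00000052360) and CACNG3.

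Among the pore-forming genes of presynaptic type, cacna1aa, a P/Q-type gene, had 14.2, 9.95 and 6.71 CPM in scn1lab HOM and 28.7, 17.6 and 17 CPM in WT. Its namesake CACNA1A instead overlapped, with 6.57, 8.63 and 3.19 CPM across HOM, 1.3, 5.36 and 31.3 CPM in HET against 7.02, 10.1 and 3.77 CPM in WT, and HET3 was the highest of the 9 libraries. The N-type gene CACNA1B (ENSDARG00000021735) had 1.45, 0.798 and 0.703 CPM in HOM and 2.64, 2.8 and 3.8 CPM in WT, and CACNA1B (ENSDARG00000079295) had 0.968, 1.74 and 0 CPM in HOM and 4.97, 3.93 and 2.16 CPM in WT. Both CACNA1B genes separated HOM from WT, whereas the R-type gene CACNA1E did not, with 10.8, 7.27 and 4.98 CPM in HOM and 9.22, 7.5 and 10.4 CPM in WT.

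The T-type genes, whose channels open near rest, were mixed in scn1lab. cacna1ha had 4.36, 3.89 and 4.98 CPM in HOM and 11, 10 and 8.29 CPM in WT. CACNA1I had 3.94, 3.19 and 2.81 CPM in HOM and 5.64, 6.37 and 6.26 CPM in WT. CACNA1G overlapped, with 9.06, 5.02 and 2.04 CPM in HOM and 9.89, 7.21 and 5.47 CPM in WT. Of the L-type genes, cacna1da, which in zebrafish serves hair cell synapses, had 4.43, 1.97 and 1.6 CPM in HOM and 7.1, 6.7 and 5.93 CPM in WT without overlap. Hair cell markers summed to 298 to 368 CPM in HOM and 237 to 374 CPM in WT, ranges that overlap.

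Subunits of the retina, and a TARP gene, varied between libraries of the same genotype. CACNA1F, the L-type pore of photoreceptor synapses, had 0.277, 0.328 and 0.383 CPM across scn1lab HOM, 0.245, 0.244 and 5.39 CPM in HET against 0.788, 9.39 and 4.29 CPM in WT. HOM lay below WT throughout, with a log2 change of -3.84 ± 1.37 (edgeR adjusted p = 0.202), but WT1 was near HOM and HET3 was high. cacna2d4b, an alpha2delta gene of the type used by photoreceptors in mice, had 2.77, 0.845 and 0 CPM across HOM, 3.87, 1.64 and 1.32 CPM in HET against 0.473, 21.7 and 13.7 CPM in WT, so it was high in WT2 and WT3 but not in HET3. The TARP gene CACNG5 (ENSDARG00000003326) was high in WT2, WT3 and HET3 and had 1.87, 3.47 and 1.73 CPM across HOM, 3.38, 1.1 and 11.7 CPM in HET against 3.19, 29.8 and 15.2 CPM in WT, with a log2 change of -2.76 ± 0.96 (edgeR adjusted p = 0.196).

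The summed level of photoreceptor markers over 30 genes was 89.3, 644 and 188 CPM across scn1lab HOM, 1020, 383 and 3970 CPM in HET against 61.2, 7030 and 4970 CPM in WT, so WT2, WT3 and HET3 stood out while WT1 was the lowest of the 9 libraries. Of the 30 markers, 0 separated HOM from WT, and opn1mw4 was at 0 in every scn1lab library. The part of the photoreceptor markers in the levels of CACNA1F, cacna2d4b and CACNG5 (ENSDARG00000003326) was not tested.

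Of the skeletal muscle channel, the pore, alpha2delta and gamma subunit genes overlapped between scn1lab HOM and WT, unlike the beta subunit gene CACNB1 described above. The pore gene CACNA1S (ENSDARG00000029457) had 7.47, 8.73 and 6.84 CPM across HOM, 15.9, 2.19 and 1.68 CPM in HET against 8.79, 6.34 and 4.49 CPM in WT. The gamma subunit gene CACNG1 (ENSDARG00000008772) had 25.2, 17.9 and 31.1 CPM across HOM, 41.1, 10.8 and 0.618 CPM in HET against 18.3, 23.2 and 16.9 CPM in WT. HOM and WT overlapped in both genes, and HET1 was the highest of the 9 libraries in each. The alpha2delta gene cacna2d1a had 12.2, 11.9 and 11.2 CPM in HOM and 7.37, 10.2 and 11.4 CPM in WT, which overlapped. cacng6a, a gamma subunit gene of the muscle type, likewise overlapped with 9.27, 9.81 and 13.9 CPM in HOM and 10.7, 10.1 and 5.87 CPM in WT. Skeletal muscle markers summed to 19100 to 37700 CPM in HOM and 16900 to 28100 CPM in WT, and of 19 markers 0 were below WT in every HOM library.

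**Figure D4:**
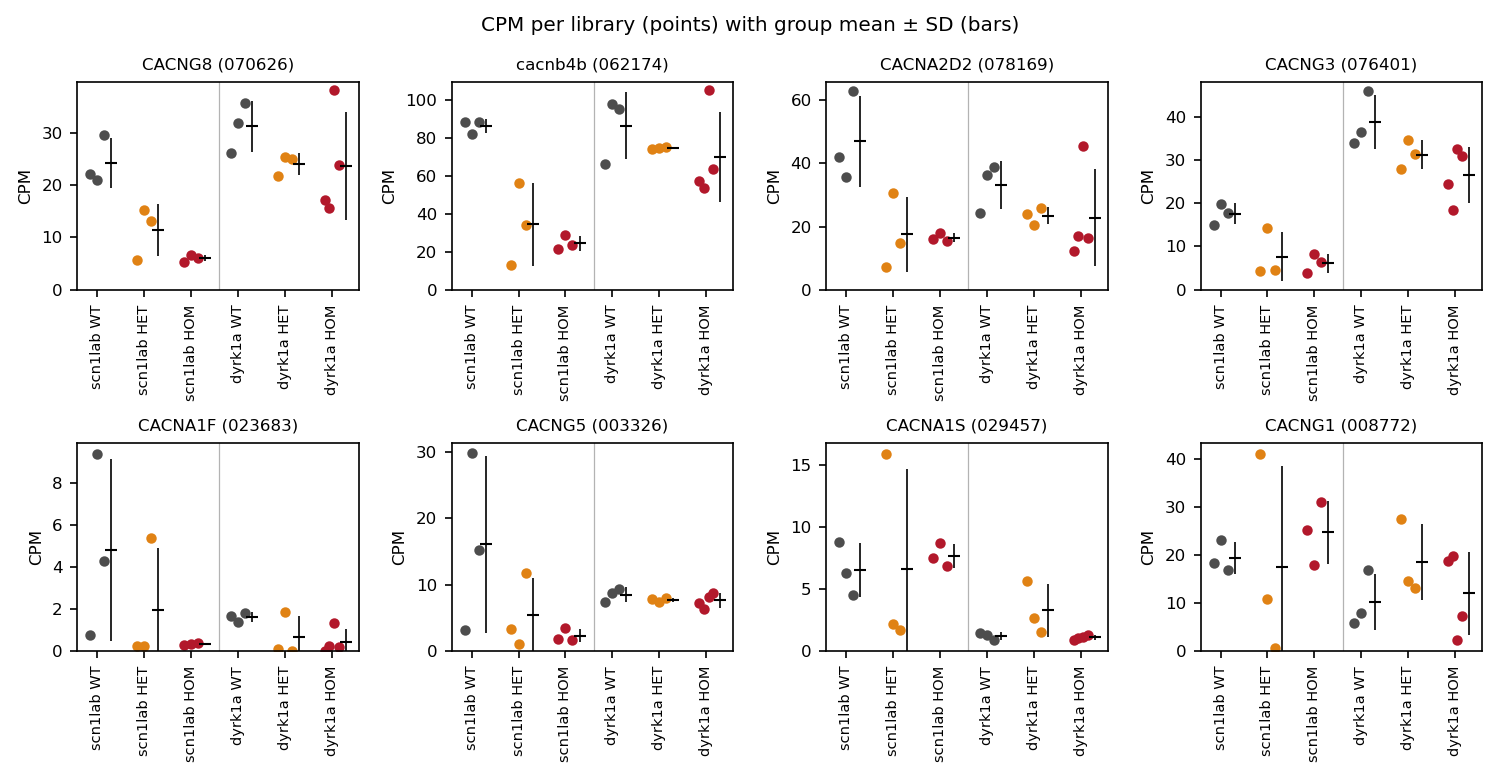
CPM per library (points) with the group mean ± SD (bars) for 8 subunit genes in the 6 genotype groups; the last 6 digits of the ID follow each symbol. CACNG8, cacnb4b, CACNA2D2 and CACNG3 are lower in every scn1lab HOM and HET library than in any scn1lab WT library, CACNA1F and CACNG5 spread widely within scn1lab WT, and CACNA1S and CACNG1 overlap between scn1lab HOM and WT.

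Heterozygous scn1lab heads were compared with the same 3 WT libraries, so their results are not independent of those above. Of 44 genes 0 were called, where 0% of all genes were called, and DESeq2 called 0, where it called 1.39% of all genes. At an unadjusted p under 0.05, 10 were lower and 0 higher, against 5.96% lower and 7.24% higher among all genes. The count of 10 was 5 without WT3, 6 without HET1 and 3 with the share of digestive genes as a covariate. It was 18 without a scaling factor, where the median log2 change of all genes was -0.46. In 12 genes every HET library was below every WT library, against 11% of all genes. Leaving out a library can only keep or raise this count, and it ranged from 14 to 22 as single libraries were left out. No share of all genes was computed for those subsets. The median log2 change was -0.64 over the 44 genes and 0.06 over all genes.

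The 4 genes with the smallest p in scn1lab HET against WT had an edgeR adjusted p of 0.341 each. The log2 change was -1.32 ± 0.43 for cacna2d2a, -1.42 ± 0.46 for CACNA2D2, -1.32 ± 0.44 for cacnb4b and -1.58 ± 0.53 for CACNG5 (ENSDARG00000039240). All 4 had every HET library below every WT library. HET1 was the lowest HET library for cacna2d2a, CACNA2D2 and cacnb4b, and it also had the lowest neuron marker sum of the 9 libraries.

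Between scn1lab HOM and HET 0 of 44 genes were called, where 0.00466% of all genes were called, and DESeq2 called 0, where it called 0.285% of all genes. There were 2 lower and 0 higher at an unadjusted p under 0.05, against 1.88% lower and 2.38% higher among all genes. Without HET1 9 were lower and 2 higher, and without HET2 3 were lower and 2 higher. CACNG8 (ENSDARG00000070626) was lower in HOM by a log2 change of -0.91 ± 0.38 (edgeR adjusted p = 0.945), with HET1 inside the range of HOM. cacna2d4a was at 0 in the 3 HOM libraries and had 0.245, 0 and 3.09 CPM in HET, which is at least 6.17-fold lower in HOM and comes mainly from HET3. The log2 change was -1.31 ± 0.59 for cacna1da and -1.49 ± 0.75 for CACNG7 (ENSDARG00000070624), both with an edgeR adjusted p of 0.945 and with overlapping libraries.

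In the dyrk1a line most subunit genes overlapped between HOM and WT. Of 43 genes 0 were called, where 0% of all genes were called, and DESeq2 called 0, where it called 0.69% of all genes. At an unadjusted p under 0.05, 3 were lower and 0 higher, against 3.26% lower and 4.54% higher among all genes. In 4 of 43 (9.3%) every HOM library was below every WT library, against 3.64% of all genes. Leaving out a library can only keep or raise this count, and it was 13 without HOM3 and 9 without WT1. No share of all genes was computed for those subsets. The count of 3 was 10 without HOM3, 5 without HOM5, 1 without HOM1, 0 without HOM2, 1 without WT2 and 2 without WT4. The median log2 change was -0.37 over the 43 genes and 0.01 over all genes.

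The dyrk1a HOM libraries differed among themselves. The cacna1 sum was 19.3, 26.4, 50.7 and 59.8 CPM in HOM and 47.3, 44.7 and 47.6 CPM in WT, so 2 HOM libraries lay below WT and the other two above it. cacna1aa had 5.2, 8.74, 21.3 and 24 CPM in HOM and 14.7, 12.7 and 15.5 CPM in WT, the same split. The cacna2d sum was instead 32.9, 37.4, 85.4 and 37.1 CPM in HOM and 56.1, 87.1 and 89.4 CPM in WT. Here HOM3 lay inside the range of WT, and the other HOM libraries lay below every WT library. The neuron marker sum was 4090, 3550, 5460 and 6060 CPM in HOM and 5160, 5640 and 5830 CPM in WT, again lowest in HOM1 and HOM2. Per 1000 CPM of neuron markers the 49 genes summed to 66.7 to 91.3 CPM in HOM and 77.1 to 89 CPM in WT, which overlap. The part of the neuron markers in these levels was not tested.

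CACNG3 had 24.5, 18.4, 32.5 and 31 CPM across dyrk1a HOM, 27.8, 34.5 and 31.3 CPM in HET against 33.9, 36.4 and 45.9 CPM in WT. Every HOM library was below every WT library, with a log2 change of -0.54 ± 0.21 (edgeR adjusted p = 0.571). cacna2d2a had 9.38, 10.8, 20.6 and 13.5 CPM in HOM and 17.3, 25.2 and 23.4 CPM in WT, with HOM3 inside the range of WT and a log2 change of -0.69 ± 0.26 (edgeR adjusted p = 0.568). This alpha2delta gene had the smallest p of the 43. The muscle-type gamma gene CACNG1 (ENSDARG00000052360) had 0.942, 0.728, 0.975 and 1.09 CPM in HOM and 2.71, 2.26 and 1.53 CPM in WT without overlap, and a log2 change of -1.2 ± 0.49 (edgeR adjusted p = 0.602).

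CACNA1A had 4.04, 5.83, 7.56 and 8.08 CPM in dyrk1a HOM and 12.8, 13.8 and 5.28 CPM in WT, where WT4 fell among the HOM libraries, and its log2 change was -0.73 ± 0.36 (edgeR adjusted p = 0.668). cacna1eb, an R-type pore gene, had 0, 0.34, 0.234 and 0.607 CPM in HOM and 1.15, 0.95 and 0.619 CPM in WT, and its log2 change was -1.61 ± 1.08 (edgeR adjusted p = 0.774). cacna2d1a had 3.99, 3.06, 3.51 and 0.85 CPM in HOM and 2.2, 11.7 and 7.57 CPM in WT, and its log2 change was -1.31 ± 0.6 (edgeR adjusted p = 0.639). Of these 3 genes, cacna1eb separated HOM from WT, by a narrow gap. CACNA1F, the photoreceptor pore gene, also separated them, with 0, 0.243, 1.33 and 0.182 CPM in HOM and 1.7, 1.38 and 1.82 CPM in WT. The remaining 4 of the 10 genes with the smallest p overlapped: the log2 change was -0.45 ± 0.22 for CACNG7 (ENSDARG00000070624), -0.81 ± 0.42 for CACNA2D3 (ENSDARG00000078760), -0.34 ± 0.23 for CACNG8 (ENSDARG00000020450) and -0.7 ± 0.48 for CACNB3 (ENSDARG00000076030), with edgeR adjusted p from 0.67 to 0.777.

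The 2 genes with the smallest p in scn1lab HOM against WT overlapped between HOM and WT in dyrk1a. cacnb4b had 57.4, 53.8, 105 and 63.7 CPM across dyrk1a HOM, 74.1, 74.6 and 74.9 CPM in HET against 66, 97.9 and 95 CPM in WT. CACNG8 (ENSDARG00000070626) had 17.1, 15.7, 38.2 and 23.8 CPM across HOM, 21.7, 25.4 and 25.1 CPM in HET against 26.1, 31.9 and 35.7 CPM in WT. In both genes HOM3 was the highest of the 10 libraries.

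Among the muscle-type subunits of dyrk1a, some had HOM3 as the lowest library, and they are shown here for that, chosen after their values were seen. CACNG1 (ENSDARG00000008772) had 18.8, 19.9, 2.38 and 7.23 CPM in HOM and 5.92, 7.87 and 16.8 CPM in WT. CACNA1S (ENSDARG00000042552) had 1.84, 2.57, 0 and 3.1 CPM in HOM and 1.56, 1.62 and 7.1 CPM in WT. cacng6a had 10.2, 6.8, 1.99 and 6.44 CPM in HOM and 5.41, 4.99 and 8.92 CPM in WT. cacng6b had 1.71, 2.18, 0 and 0.425 CPM in HOM and 0.872, 1.19 and 1.46 CPM in WT. HOM and WT overlapped in all of these genes. HOM3 was not the lowest library in CACNA1S (ENSDARG00000029457), CACNG1 (ENSDARG00000052360), cacna2d1a or CACNB1, where it stood at 1.17, 0.975, 3.51 and 28.1 CPM. The muscle marker sum was also lowest in HOM3, at 3270 CPM against 8610 to 22000 CPM in WT, and the part of the muscle markers in these levels was not tested.

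In dyrk1a HET against WT 0 of 43 genes were called, where 0% of all genes were called, and DESeq2 called 0, where it called 0.141% of all genes. Without adjustment 1 was higher and 1 lower at p under 0.05, against 2.02% higher and 1.31% lower among all genes, and without HET2, or without WT2, both counts were 0. The muscle pore gene CACNA1S (ENSDARG00000029457) had 5.64, 2.66 and 1.57 CPM in HET against 1.47, 1.31 and 0.91 CPM in WT, with a log2 change of 1.44 ± 0.55 (edgeR adjusted p = 1). HET lay above WT throughout, by the most in HET2, where muscle markers also reached their highest sum in the line at 33800 CPM. The part of the muscle markers in it was not tested. CACNA1A had 4.7, 6.78 and 5.85 CPM in HET, and its log2 change was -0.86 ± 0.39 (edgeR adjusted p = 1), with WT4 at 5.28 CPM inside the HET range. The log2 change was -0.47 ± 0.28 for cacna2d2a and -0.29 ± 0.22 for CACNG3, each with an edgeR adjusted p of 1.

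Between dyrk1a HOM and HET 0 of 43 genes were called, where 0% of all genes were called, and DESeq2 called 0, where it called 0.713% of all genes. The number lower at an unadjusted p under 0.05 was 2, or 5 without HOM3, and 0 were higher, against 2.68% lower and 3.92% higher among all genes. CACNA1S (ENSDARG00000029457) had 0.897, 1.07, 1.17 and 1.34 CPM in HOM, all below HET, with a log2 change of -1.56 ± 0.51 (edgeR adjusted p = 0.598). CACNB3 (ENSDARG00000076030) had 0.942, 1.65, 4.44 and 4.68 CPM in HOM and 6.99, 6.98 and 7.84 CPM in HET without overlap, with a log2 change of -1.33 ± 0.48 (edgeR adjusted p = 0.639). Its WT libraries were at 4.59, 4.47 and 5.24 CPM, so every HET library was also above WT, and HOM3 and HOM5 were near WT. The other CACNB3 ID (ENSDARG00000001881) ran the other way, with 2.93 to 3.53 CPM in HET and 4.62 to 6.65 CPM in WT. Its HOM libraries ranged from 1.3 to 8.19 CPM. For cacna2d1a the log2 change was -1.25 ± 0.6 without overlap and for CACNG7 (ENSDARG00000070624) it was -0.44 ± 0.22 with overlap, with edgeR adjusted p of 0.777 and 0.796.

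Whether the HOM effect differed between the lines was tested in 1 fit of all 19 libraries, as the HOM against WT change in dyrk1a minus that in scn1lab. Of 45 subunit genes 0 were called, where 0.0267% of all genes were called, and DESeq2 called 0, where it called 1.52% of all genes. At an unadjusted p under 0.05, 6 had a higher and 1 a lower value in dyrk1a, against 5.52% and 5.27% of all genes. Without a scaling factor these counts were 13 and 0. They were 9 and 1 with the share of digestive genes as a covariate, and 4 and 1 without dyrk1a HOM3. With the replicate number as a block in the fit they were 2 and 0. The difference in log2 change was 1.61 ± 0.47 for CACNG8 (ENSDARG00000070626; edgeR adjusted p = 0.326) and 1.5 ± 0.5 for cacnb4b (edgeR adjusted p = 0.359). For CACNG5 (ENSDARG00000003326) it was 2.6 ± 0.94 (edgeR adjusted p = 0.363). This gene was high in scn1lab WT2 and WT3, which were rich in photoreceptor markers as described above. In dyrk1a it had 7.22, 6.36, 8.19 and 8.8 CPM in HOM and 7.34, 8.82 and 9.42 CPM in WT. Photoreceptor markers there summed to 234, 120, 114 and 89.4 CPM in HOM and 1740, 90.5 and 767 CPM in WT. Their part in the difference was not tested. CACNA2D3 (ENSDARG00000106018) was the fourth by p (edgeR adjusted p = 0.38), and its difference has no usable size because it was at 0 in scn1lab HOM.

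The HET effect likewise differed past the threshold in 0 of 45 genes, where 0.00445% of all genes were called, and DESeq2 called 0, where it called 0.424% of all genes. Without adjustment 2 had a higher and 0 a lower value in dyrk1a at p under 0.05, against 2.86% and 3.26% of all genes. The count of 2 was 11 without scn1lab HET2 and 10 without a scaling factor. It was 0 with the replicate number as a block in the fit. Leaving out scn1lab WT3, dyrk1a HET4 or dyrk1a WT4, each alone, also brought it to 0. The 4 genes with the smallest p had an edgeR adjusted p from 0.81 to 0.822. The difference in log2 change was 1.12 ± 0.52 for cacnb4b, 2.46 ± 1.16 for CACNB3 (ENSDARG00000076030), 1.49 ± 0.71 for CACNG5 (ENSDARG00000039240) and 1.96 ± 0.96 for CACNA2D3 (ENSDARG00000078760). In scn1lab all 4 were lower in the HET mean than in the WT mean. In dyrk1a CACNB3 (ENSDARG00000076030) was higher in HET, at 6.98 to 7.84 CPM against 4.47 to 5.24 CPM in WT. The others overlapped there between HET and WT.

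Apart from the genes described above, those left out of the tests were near the floor in nearly every library. cacna1fa, a duplicate of the photoreceptor pore gene, was at 0 in 13 of 19 libraries and highest in scn1lab WT2 at 1.46 CPM. cacng3a was at 0 in 16 libraries, cacna1ib in 12, CACNA1H in 11 and cacna1db in 8. Of these, CACNA1H, a T-type gene, was highest in scn1lab HET3 at 1.15 CPM. At 0 in all scn1lab HET and all dyrk1a HOM libraries, cacna1fa was at least 2.9-fold lower in scn1lab HET than in WT and at least 2.38-fold lower in dyrk1a HOM than in WT. Its WT levels were themselves uneven, at 0, 1.46 and 0.197 CPM in scn1lab and 0.917, 0.119 and 0 CPM in dyrk1a.

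Genes that work beside the channels were followed from a list of 100 names, of which 88 IDs matched. The list holds channel inhibitors and adaptors, release channels of internal stores, pumps and exchangers, calcium sensors, buffers, presynaptic tethers and the leak channel complex. In scn1lab HOM against WT 0 of 87 tested passed, with 27 lower and 0 higher at an unadjusted p under 0.05, against 9.1% lower and 9.8% higher among all genes, and a median log2 change of -0.67. The calcium sensors and effectors had 10 of 22 lower (median -0.98) and the presynaptic tethers 4 of 9 (median -1.25). The leak channel complex had 3 of 4 lower (median -0.96) and the pumps and exchangers 4 of 18 (median -0.67). The buffers had 3 of 11 lower (median -0.48) and the inhibitors and adaptors 1 of 6 (median -0.49). The release channels and junction proteins had 2 of 17 (median 0.18), a share near that of all genes. In dyrk1a 0 of 85 passed, with 5 lower and 1 higher at an unadjusted p under 0.05, against 3.26% lower and 4.54% higher among all genes, and a median of -0.13.

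The 2 partners with the smallest p in scn1lab were a sensor and a buffer. hpca, which encodes the neuronal calcium sensor hippocalcin, had 46.7, 60.7 and 43.4 CPM across HOM, 35, 94.2 and 76.5 CPM in HET against 142, 175 and 184 CPM in WT, with a log2 change of -1.73 ± 0.36 (edgeR adjusted p = 0.149). CALB2 (ENSDARG00000041062), the calcium buffer calretinin, had 28.4, 47.2 and 76 CPM across HOM, 74.5, 103 and 51.1 CPM in HET against 148, 180 and 187 CPM in WT, with a log2 change of -1.76 ± 0.39 (edgeR adjusted p = 0.156). In both, every HOM and HET library was below every WT library. In dyrk1a the plasma membrane calcium pump gene atp2b1b had 3.99, 3.01, 2.14 and 1.88 CPM in HOM and 8.17, 8.43 and 6.8 CPM in WT without overlap, with a log2 change of -1.48 ± 0.36 (edgeR adjusted p = 0.449). NALF1 (ENSDARG00000075858), a subunit of the leak channel complex, had 8.17, 6.02, 13.8 and 12 CPM in HOM and 17.8, 16.4 and 15.9 CPM in WT without overlap, with a log2 change of -0.74 ± 0.26 (edgeR adjusted p = 0.568).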

How the data were processed

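Each library is 1 larval head with the eyes removed, prepared with a low-input kit, per the labels' protocols. Either of 2 RNA extraction kits was used, and the kit of each library is not given in the sources used here. Per the submitters' processing notes, Trim Galore 0.5.0, HISAT2 2.1.0, StringTie 1.3.3b, DESeq2 1.22.1 and GRCz11 were used. The deposited values are raw counts per gene ID; strandedness is not given in the sources used here, so reads of antisense genes cannot be told apart. Symbols came from a supplied table of gene names.

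In R 4.3.3, edgeR 4.0.16 (filterByExpr, TMM, robust quasi-likelihood F test) was fitted once per line, and once over all 19 libraries for the difference between lines, with Benjamini-Hochberg adjustment over all genes tested. SE was computed back from the log2 change and the square root of its F value. The procedure was tried on simulated data, with larger changes and in genes of higher counts than most subunit genes had. That trial therefore does not cover most of the results reported here. Alternatives were DESeq2 1.42.0, other scalings, no filter, fewer groups, the digestive share, a replicate block and leaving out libraries. The subunit genes, marker lists, partner list and rules were chosen with earlier results of these data known. Tests are printed for genes past the threshold, for the 10 subunit genes with the smallest p in HOM against WT and for the 4 with the smallest p elsewhere, and for 2 partners per line; levels are given for any subunit gene. Each library is a separate animal. No exact permutation test of single values is printed, since 3 against 3 libraries cannot go below 0.1.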

Additional observations from a re-analysis of the deposited data

Results flagged for a closer look

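Among the 4 dyrk1a HOM libraries, 5 of the 43 subunit genes tested had 1 library far from the other 3 by Dixon's criterion. By chance this criterion marks about 1 in 20 groups of normally distributed values. CPM need not be so distributed, some of these genes were near the floor, and no share of all genes was computed. CACNA1I (ENSDARG00000070522), a T-type pore gene, had 3.16 CPM in HOM5 and 1.21 to 1.48 CPM in the others. CACNA2D2 (ENSDARG00000078169) had 45.6 CPM in HOM3 and 12.1 to 16.9 CPM in the others, and the value in HOM3 is the highest of the dyrk1a line. CACNA2D3 (ENSDARG00000106018) had 0.897 CPM in HOM3 and at most 0.121 CPM in the others. cacna2d4a had 0.789 CPM in HOM5 and at most 0.117 CPM in the others. cacna2d4b had 0 CPM in HOM5 and 1.12 to 1.29 CPM in the others.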

How the results depend on the processing

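Of 915 alternative values for the 48 single-gene results, 894 kept their direction and their side of the threshold, 21 moved past it in the same direction, and 0 reversed. None of the 48 had passed in the fits reported above, so keeping a side meant staying uncalled. The 48 were also chosen by their small p in the same libraries, which makes reversals unlikely. All but 1 of those 21 belong to scn1lab HOM against WT; the other is atp2b1b in dyrk1a under DESeq2 (adjusted p = 0.0313). The number of subunit genes past the threshold in scn1lab HOM against WT, 0 in the fit of the whole line, was 6 with DESeq2 and 12 with only the 2 compared groups in the fit. As single libraries were left out it ranged from 0 to 2, and no share of all genes was computed for those fits. In the other comparisons it was 0 under every alternative run. Same-numbered libraries did not stand out as pairs: their deviations correlated by -0.4 to 0.14 in scn1lab and -0.2 to 0.29 in dyrk1a. Between differently numbered libraries the range was -0.31 to 0.42 in scn1lab and -0.28 to 0.31 in dyrk1a. With so few pairs, this check cannot exclude that the replicate numbers pair the libraries. With the replicate block 0 subunit genes passed in any comparison, and 5 were lower at an unadjusted p under 0.05 in dyrk1a HET against WT in place of 1. By the same rule 9 were lower in dyrk1a HOM against WT, more than above. In scn1lab 13 were lower in HOM against WT and 6 in HET against WT, fewer than above. With this block the median log2 change of HOM against WT was -1.18 in scn1lab and -0.68 in dyrk1a. Without any scaling factor, an alternative chosen after seeing the data, the median of all genes in scn1lab HOM against WT was -0.37 and that of the subunit genes -1.6, and in HET against WT they were -0.46 and -1.19. Without it every HOM library was below every WT library in 2 genes in dyrk1a, and every HET library below every WT library in 22 genes in scn1lab. Shares of all genes were not computed for these counts. Nor were they computed for the other counts by unadjusted p or by overlap under alternatives. The causes of these shifts were not tested. Depth limits the lowest genes, which are worth few counts per library.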
